A study of Mus musculus with 12 samples.

Results

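Acetylation of histone H3 at lysine 27 (H3K27ac) was examined around 7 genes that build or steer muscle transcription: *Myocd*, *Srf*, *Mef2a*, *Mef2c*, *Mef2d*, *Smyd1* and *Hopx*, out of 21883 protein-coding mouse genes. Every H3K27ac interval and every GLI1 site within a gene or up to 50 kb from either of its ends was taken, on mouse build mm10. The windows held 79 of 76437 H3K27ac intervals from induced cells, 101 of 67463 from control cells and 1 of 2605 GLI1 sites. The cells were cardiac progenitor cells differentiated for 6 days from mouse embryonic stem cells of the GLI1-FTA line, which was made in the A2Lox.cre parent and carries a doxycycline-inducible GLI1 with an Avi tag. In the dox groups, 500 ng/ml doxycycline was given for 24 hours from day 5. In the control groups, cells of the same line, carrying the same inducible transgene, were harvested untreated on day 6. The 12 samples made up 6 groups of 2, one for each pairing of dox or control with a GLI1 streptavidin pulldown, an H3K27ac immunoprecipitation or an input.

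Serum response factor, encoded by *Srf*, is a MADS-box protein that binds the CArG box in front of cytoskeletal, immediate early and muscle genes. Myocardin (*Myocd*) does not bind DNA by itself but joins SRF and drives cardiac and smooth muscle genes. The MEF2 proteins are MADS-box factors that bind an AT-rich element in muscle genes and are held in check by class IIa histone deacetylases. *Smyd1* encodes a methyltransferase of heart and skeletal muscle that is needed for heart development in the mouse and is known there as a target of muscle transcription factors. *Hopx* encodes a small homeodomain protein that does not bind DNA and that in the mouse heart acts against SRF-dependent transcription. GLI1 is a transcriptional activator of the Hedgehog pathway.

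Each deposited list pools the 2 samples of its group, so no spread between samples can be given, and no difference between dox and control cells was tested. The value of an interval is the authors' fold enrichment, the pileup of reads at a summit over the local background of the same pool. Intervals of both lists sharing at least 1 bp were merged into regions, which were shared, dox-only or control-only. An interval missing from a list was not called there, which is not a measure of no acetylation. Shared regions are described by a log2 ratio, the fold enrichment in dox divided by that in control. The median over the 35389 shared regions of the series, −0.13, was subtracted from it. A ratio of at least 1 in size is called higher or lower. Library depth is unknown from the lists, but whole-read pileups could be recovered, and the uniform background was 3.63 reads in dox and 2.83 in control. Ratios of these pileups, scaled for the background ratio of 1.28 and centred in the same way, are given beside the fold enrichment with 95% intervals that cover counting error only. The label was checked at gene ends. Of 9 cardiac progenitor genes, 5 had a region there in dox and 4 in control, and of 4 endothelial genes, 4 did in dox and 2 in control. Of the 20199 genes analysed, 10350 did in dox and 10198 in control. The cardiac counts are near that share and so do not bear on the label. The skeletal muscle genes *Myod1*, *Myf5*, *Myog* and *Pax7* had a region there in neither list.

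Promoter sequences from RefSeq (GRCm38.p6, 250 bases before to 50 after a start) were found for 6 of the 7 genes in 9 entries. Both strands were searched for the CArG box, the MEF2 site and the GLI motif GACCACCCA, which occur in 1.63%, 3.19% and 0.253% of 32851 promoters. The 3 entries with a match are printed because they hold the letters of an SRF or MEF2 element at or before a member's start. Capitals mark the matches.
Srf (chr17:46556113-46556412, minus strand): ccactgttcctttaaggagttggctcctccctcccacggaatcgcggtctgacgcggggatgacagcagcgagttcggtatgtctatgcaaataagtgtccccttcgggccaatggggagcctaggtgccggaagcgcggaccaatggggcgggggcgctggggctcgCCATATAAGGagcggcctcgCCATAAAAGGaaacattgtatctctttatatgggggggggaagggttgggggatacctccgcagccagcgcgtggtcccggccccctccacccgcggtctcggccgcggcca
Mef2a (chr7:67372809-67373108, minus strand): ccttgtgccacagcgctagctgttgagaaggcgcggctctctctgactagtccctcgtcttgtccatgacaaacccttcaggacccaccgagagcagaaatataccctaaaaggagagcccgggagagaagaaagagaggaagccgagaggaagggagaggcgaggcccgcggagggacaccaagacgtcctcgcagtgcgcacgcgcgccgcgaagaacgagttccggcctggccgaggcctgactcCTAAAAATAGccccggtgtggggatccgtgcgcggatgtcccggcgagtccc
Hopx (chr5:77115074-77115373, minus strand): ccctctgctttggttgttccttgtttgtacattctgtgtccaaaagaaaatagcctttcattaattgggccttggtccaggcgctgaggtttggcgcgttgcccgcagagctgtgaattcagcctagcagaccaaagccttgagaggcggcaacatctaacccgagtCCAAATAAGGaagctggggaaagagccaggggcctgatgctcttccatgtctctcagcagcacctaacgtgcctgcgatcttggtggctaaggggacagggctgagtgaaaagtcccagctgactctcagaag
The *Srf* promoter held 2 CArG boxes, CCATATAAGG starting 82 bases and CCATAAAAGG starting 62 bases before the start. The *Mef2a* promoter held the MEF2 site CTAAAAATAG, which starts 2 bases before the start. The upstream *Hopx* promoter held the CArG box CCAAATAAGG starting 83 bases before it. The GLI motif matched in 0 of the 9 entries. A match describes letters only and shows no binding.

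The 7 windows together held 112 regions, which divided into 26 dox-only, 40 shared and 46 control-only regions. Dox-only regions made up 23.2% of the windows, against 35.5% of all 94481 regions, and control-only regions made up 41.1%, against 27.1% of all. Acetylated intervals covered 80.5 kb in dox and 98.1 kb in control, with a mean fold enrichment of 13.4 in dox and 16.0 in control. Over the whole lists, the covered length was 66.0 Mb in dox and 59.9 Mb in control. Of the 40 shared regions, 2 were higher and 7 lower in dox, or 5.0% and 17.5%, against 6.78% and 8.31% of all shared regions. The median ratio was −0.44, and 28 of 40 ratios were below 0, against 50.0% of all shared regions. Fewer cells of a type with the mark and less of the mark per cell cannot be told apart in these bulk samples.

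**Figure D1:**
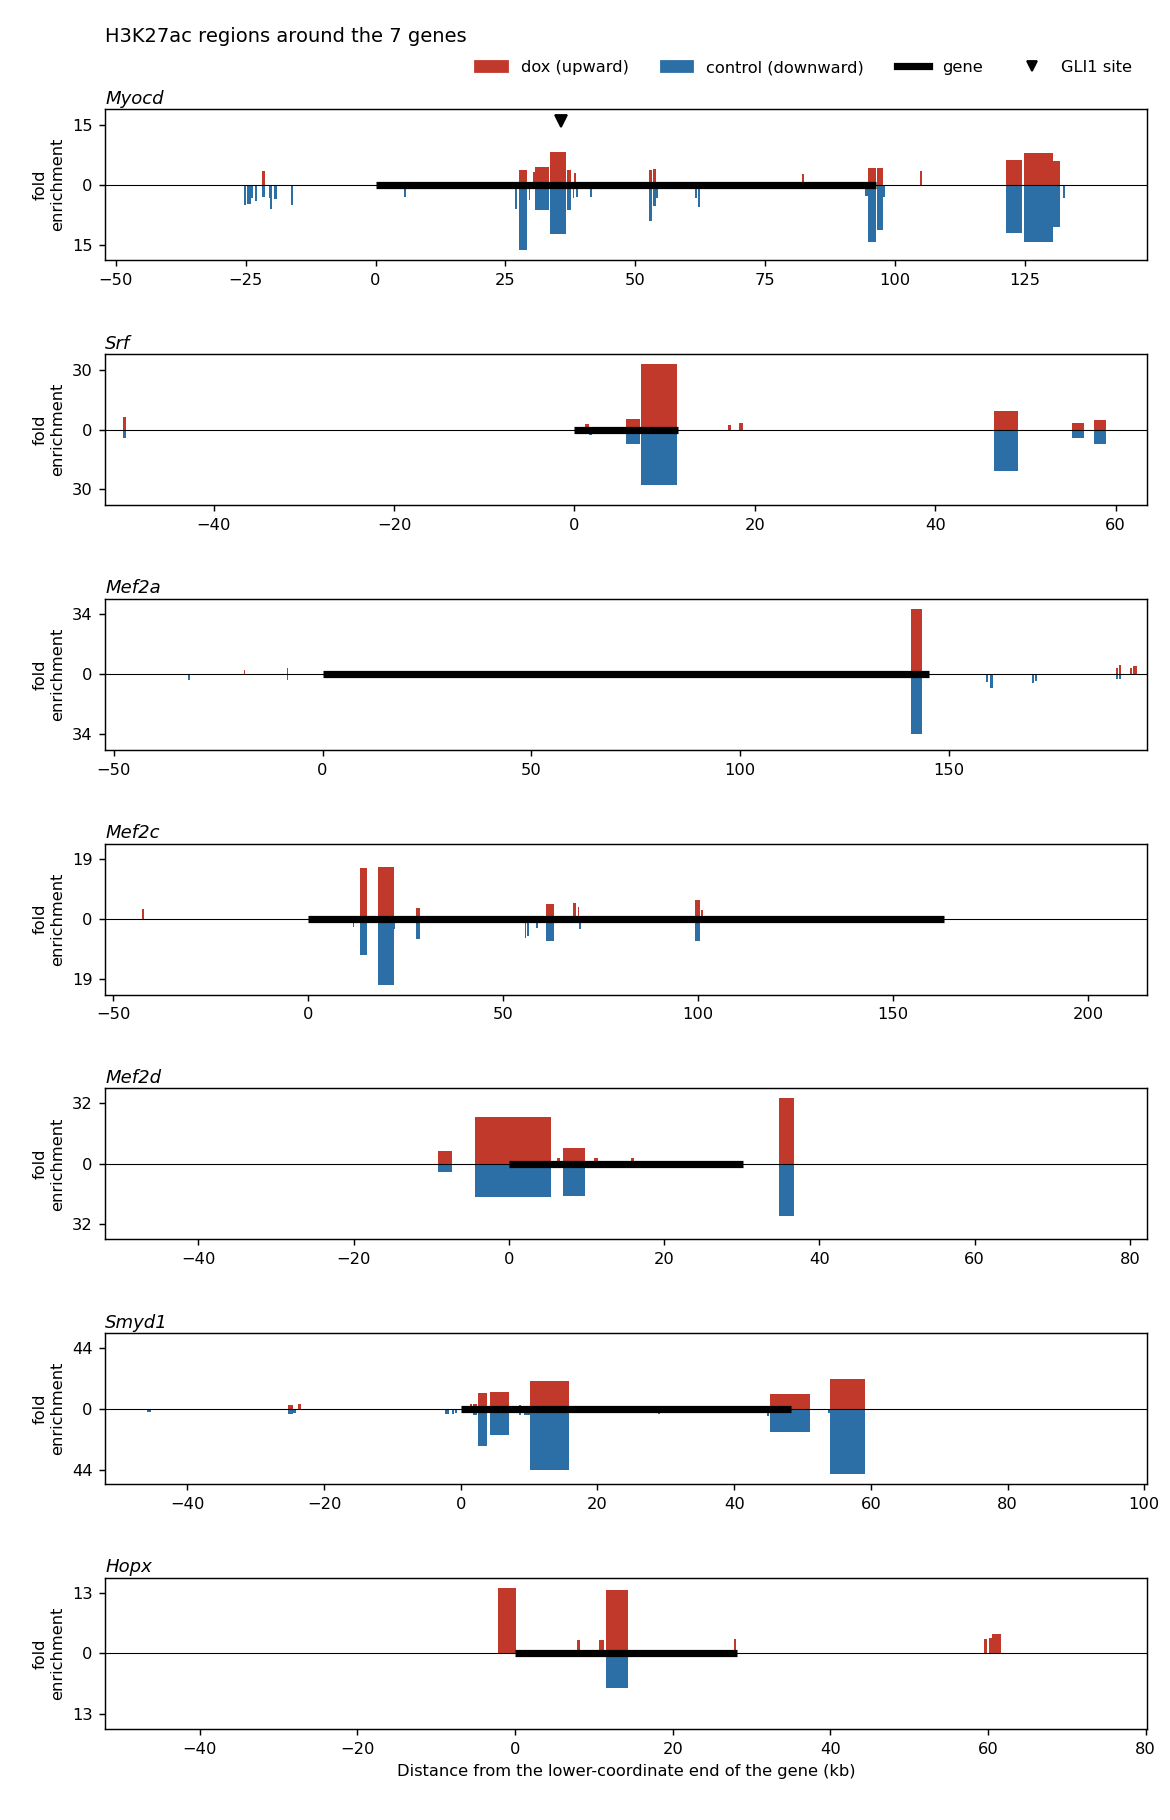
H3K27ac regions in the 7 windows, with the distance from the lower-coordinate end of each gene (kb) on the x axis and fold enrichment on the y axis, dox bars upward and control bars downward. Black bars are genes and the triangle is the GLI1 site; control bars are the taller ones across *Myocd* and *Smyd1*, while *Hopx* has 7 dox bars with no control bar and 1 pair.

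The windows did not share a direction. *Myocd* and *Smyd1* together held 60 regions, with 6 dox-only and 34 control-only, and 19 of their 20 shared regions were below 0, with 7 lower in dox and a median of −0.64. The other 5 windows held 52 regions, with 20 dox-only and 12 control-only. By fold enrichment their 20 shared regions had 2 higher, 0 lower and a median of 0.32. Dox-only and control-only shares were 38.5% and 23.1% there, against 35.5% and 27.1% of all regions. In *Myocd* and *Smyd1* they were 10% and 56.7%. The 5 windows were mixed, with medians of −0.24 in *Srf*, −0.21 in *Mef2c*, 0.42 in *Mef2a*, 0.54 in *Mef2d* and 1.04 in *Hopx*. Both sets were formed from these same values, so their contrast tests nothing. Among regions of the windows whose higher fold enrichment reached 10, 21 of 22 were shared, 1 was dox-only and 0 were control-only, and in the series 91.9% of the 16024 regions of that strength were shared and 1.32% control-only. Of the 21, 6 were lower and 1 was higher in dox, or 28.6% and 4.76%, against 13.3% and 9.57% of the 14724 shared regions of that strength in the series. Their median was −0.66, against 0.01 in the series. Under 10, control-only regions made up 51.1% of 90 regions in the windows and 32.4% in the series.

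Some markers of the cell label were also lower in dox. Within 1 kb of their ends, 4 of the 9 cardiac progenitor genes had a value in both lists, with a median ratio of −0.65, and *Hand2* and *Tnnt2* passed the limit. Of all genes measured in both lists, 2.05% were lower, and the median was 0.14. *Hand2*, a heart transcription factor, had 10.8 in dox and 24.5 in control, and *Tnnt2*, cardiac troponin T, had 3.74 in dox and 10.4 in control. No region was called there for *Nkx2-5*, *Gata4*, *Tbx5* and *Mef2c*, while *Isl1* had 21.0 in dox and 20.2 in control. *Gata6* had 20.5 in dox and 26.7 in control, and *Myl4* had 2.82 in dox alone. *Hand2*, *Gata6* and *Nkx2-5* each had 1 GLI1 site within 50 kb. Summed over the genes with a value in both lists, the fold enrichment was 56.0 in dox and 81.9 in control for 4 cardiac genes, 16.4 in dox and 15.1 in control for 2 endothelial genes and 31.3 in dox and 51.8 in control for 2 smooth muscle genes. The endoderm gene *Foxa2* had 34.0 in dox alone and 2 GLI1 sites within 50 kb, while *Sox17* and *Hnf4a* of the same list had a region in neither. The pluripotency gene *Nanog* had 7.87 in dox and 12.8 in control, while *Pou5f1* and *Zfp42* had a region in neither. The 3 neural genes analysed had none in either list. The part of these markers in the differences around the 7 genes was not tested.

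**Figure D2:**
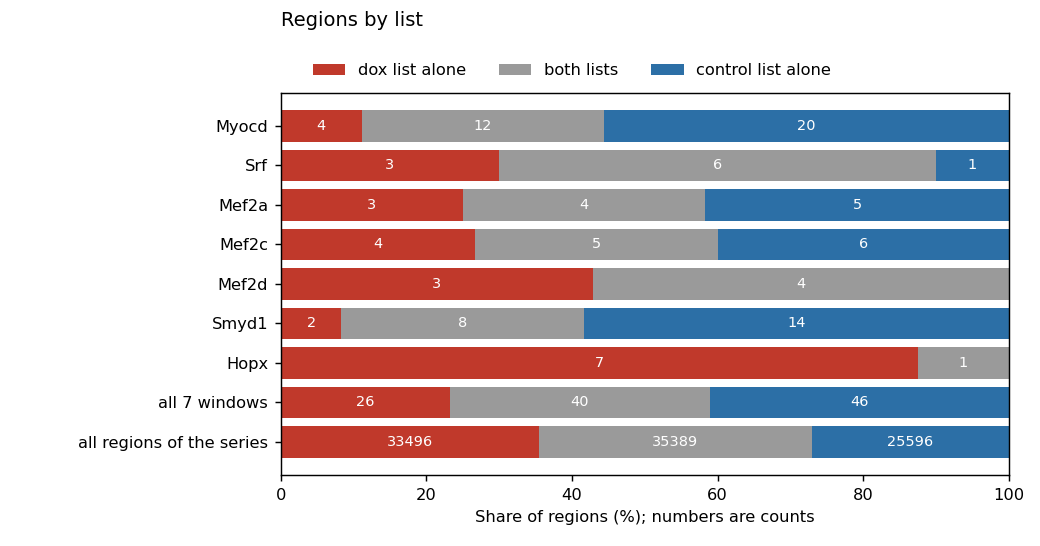
Share of regions (%) that were dox-only, shared or control-only in each window, in all 7 windows and in the whole series, with counts written in the bars. *Smyd1* and *Myocd* have the largest control-only shares of the 7 windows, 58.3% and 55.6%, and *Hopx* and *Mef2d* have 0 control-only regions.

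*Srf* lies at chr17:46546838-46558267 and is the DNA-binding hub of the group. Its start was covered by a shared region at chr17:46554200-46558251 with a fold enrichment of 33.1 in dox and 27.9 in control. The pileups were 153 reads in dox and 130 in control. The ratio was 0.38 by fold enrichment and 0.14 by pileup, with an interval of −0.20 to 0.49, so a difference at the *Srf* start was not detectable at this depth. Next to it inside the gene, the region at chr17:46552535-46554107 had 5.30 in dox and 7.30 in control. Its pileups of 25 reads in dox and 50 in control gave a pileup ratio of −1.09, against −0.33 by fold enrichment. The local backgrounds were 3.91 in dox and 5.98 in control. The remaining strong region of the window lay in the neighbour *Ptk7*, a receptor-like kinase gene, at chr17:46593392-46595993. It had 9.51 in dox and 20.7 in control, with 43 reads in dox and 101 in control. The ratio was −0.99 by fold enrichment, just short of the limit, and −1.33 by pileup, with an interval of −1.88 to −0.80. The window's highest ratio, 0.64, was at chr17:46496791-46497180 in *Dnph1*, with 6.36 in dox and 4.49 in control. The strongest dox-only region reached 3.27, and the 1 control-only region 2.70.

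*Myocd* (gene ID 214384) lies at chr11:65173608-65269989, and its window held the most regions, 36, of which 4 were dox-only, 12 shared and 20 control-only. Intervals covered 14.4 kb in dox and 28.8 kb in control. Of the 12 shared regions 11 were below 0 and 4 were lower, with a median of −0.69. The strongest one, inside the gene at chr11:65201189-65202769, had a fold enrichment of 3.74 in dox and 16.5 in control. Its pileups were 18 reads in dox and 64 in control. The ratio of −2.01 was undercut by 0.314% of all shared regions, and the pileup ratio was −1.92, with an interval of −2.77 to −1.15. After centring, the fold enrichment at this place was 4.02-fold higher in control cells.

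A second pair of regions sat at the higher-coordinate end of *Myocd*. The region at chr11:65268420-65269968 had 4.13 in dox and 14.3 in control, with 20 reads in dox and 55 in control, a ratio of −1.66. Its neighbour at chr11:65270077-65271219, which starts 88 bp beyond the gene, had 4.32 in dox and 11.4 in control, with 19 reads in dox and 54 in control, a ratio of −1.27. Both pileup intervals were below 0, as they were for 8 of the 12 shared regions of the window. The fourth lower region, at chr11:65226202-65226834 inside the gene, had 3.67 in dox and 9.14 in control and a ratio of −1.18. All 4 lower *Myocd* regions rest on weak dox intervals, with a −log10 q of 4.68 to 6.76, and where a −log10 q of at least 10 was required, 4 of 4 were control-only and had no ratio.

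Farther out, 3 broad regions lie side by side beyond the higher-coordinate end, where no other protein-coding gene is annotated. At chr11:65294872-65297985 the values were 6.30 in dox and 12.2 in control. At chr11:65298464-65303918 they were 7.99 in dox and 14.4 in control. At chr11:65303991-65305287 they were 6.05 in dox and 10.5 in control. All 3 ratios were below 0, at −0.82, −0.72 and −0.66, short of the limit, and all 3 pileup intervals were below 0 as well. On the opposite side the window reaches into the neighbouring gene *Arhgap44*. There 9 regions lay, of which 8 were control-only with fold enrichments up to 6.01. The ninth, at chr11:65151699-65152346, was the only one of the 12 shared regions above 0, with 3.53 in dox, 3.13 in control and a ratio of 0.30. Its pileup interval spanned 0.

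The single GLI1 site of the 7 windows lay in *Myocd*, at chr11:65209242-65209342, 35634 bp from the lower-coordinate end. Of all protein-coding genes, 12.9% had a site in the same span, and longer genes have larger windows. Its −log10 q of 48.8 was above that of 68.7% of the sites. GLI1 sites were called in dox cells, and no GLI1 list of control cells was analysed here. The list of sites is labelled as replicated summits with a GLI motif, so a window without a site may still hold other GLI1 summits. The site lies in a shared H3K27ac region, chr11:65207115-65210199, with 8.27 in dox and 12.3 in control. The ratio was −0.44 by fold enrichment and −0.22 by pileup, with an interval of −0.86 to 0.41. The 783 shared regions of the series with a site had a median ratio of 1.03, and 14.2% of them were below 0. The *Myocd* region had a higher ratio than 5.11% of them.

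Within that region the summits differed by place. Close to the site, a dox summit 181 bp away had a fold enrichment of 8.27 and 42 reads, and a control summit 49 bp away had 8.11 and 38 reads. Near the lower-coordinate edge, the dox summit 1347 bp from the site had 4.32 and 19 reads, and the control summit 1498 bp from it had 12.3 and 46 reads. Between them, the dox summit 585 bp from the site had 5.90 and 29 reads, and the control summit 597 bp from it had 11.3 and 47 reads. The dox summit with the highest fold enrichment and most reads was the one nearest the site. Its counting interval of 30.3 to 56.8 reads overlapped that of the dox summit at 585 bp, 19.4 to 41.6. It did not overlap that at 1347 bp, 11.4 to 29.7. In control, the summit nearest the site was below those at 1498 bp and 597 bp on either scale. Its counting interval of 26.9 to 52.2 reads overlapped theirs, 33.7 to 61.4 at 1498 bp and 34.5 to 62.5 at 597 bp. The remaining control summit, 724 bp from the site, was lower than all of these, with 5.86 and 24 reads. The remaining dox summit, 1662 bp from the site, had 4.13 and 20 reads. Its interval of 12.2 to 30.9 also overlapped that of the dox summit nearest the site. The next nearest GLI1 site, at chr11:65088224-65088324, fell outside the window, with a −log10 q of 45.7 and an H3K27ac interval in dox alone.

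*Mef2a* lies at chr7:67231163-67376456. Its gene body held 1 region, which covers the start that carries the MEF2 site printed above, at chr7:67372079-67374739. This had the highest dox fold enrichment of the 7 windows, 37.2, against 34.0 in control, with 188 reads in dox and 144 in control. The ratio was 0.26 by fold enrichment and 0.29 by pileup, with an interval of −0.03 to 0.61 that spans 0. The other 11 regions lay in the flanks, with fold enrichments up to 7.49. One of them, at chr7:67421784-67422421, was higher in dox, with 5.40 in dox and 2.81 in control and a ratio of 1.07. It rests on 24 reads in dox and 11 in control, and its pileup interval of −0.05 to 2.21 spans 0. The strongest control-only region of all 7 windows, at chr7:67390888-67391785, had 7.49, and the strongest dox-only region of this window, at chr7:67425197-67426108, had 4.75.

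*Mef2c*, the MEF2 gene needed for heart looping in the mouse, lies at chr13:83504017-83667079, and 14 of its 15 regions were inside the gene. The strongest, at chr13:83522015-83525994, covers the middle one of 3 starts in the promoter table and had 16.4 in dox and 20.8 in control. The pileups of 75 reads in dox and 82 in control gave a ratio of −0.22, with an interval of −0.69 to 0.25, against −0.21 by fold enrichment. A neighbour at chr13:83517449-83519261 stood the other way, with 16.2 in dox, 11.4 in control and a ratio of 0.64, but its pileup ratio was 0.21, with an interval spanning 0. The lowest ratio of the window was −0.66 at chr13:83531695-83532718, with 3.66 in dox and 6.32 in control. There 24 reads in dox and 25 in control gave −0.15 by pileup. The strongest regions of 1 list were chr13:83571955-83572842 with 5.24 in dox, close to the downstream start, and chr13:83559632-83559958 with 6.01 in control. Pileup intervals spanned 0 for 5 of 5 shared regions, so a difference in these was not detectable at this depth.

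*Mef2d* lies at chr3:88141941-88172091 and had the broadest region of the 7 windows, 9832 bp at chr3:88137553-88147384, across its start. The fold enrichment there was 24.6 in dox and 17.8 in control, with 121 reads in dox and 72 in control. The ratio was 0.60 by fold enrichment and 0.66 by pileup, with an interval of 0.22 to 1.10. The strongest region of the window, at chr3:88176724-88178640 and 4633 bp beyond the gene, had 34.8 in dox and 27.5 in control, a ratio of 0.47. The highest ratio, 0.83, was at chr3:88132806-88134610 upstream of the start, with 7.01 in dox and 4.32 in control. By pileup, 51 reads in dox and 16 in control, this region passed the limit at 1.58. The local backgrounds were 6.41 in dox and 2.94 in control, so the region passed the limit by pileup and not by fold enrichment. Inside the gene, chr3:88148896-88151736 stood the other way, with 8.30 in dox, 17.1 in control and a ratio of −0.91. *Mef2d* had 0 control-only and 3 dox-only regions, the latter up to 3.18. Its intervals covered 16.9 kb in dox and 13.4 kb in control.

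**Figure D3:**
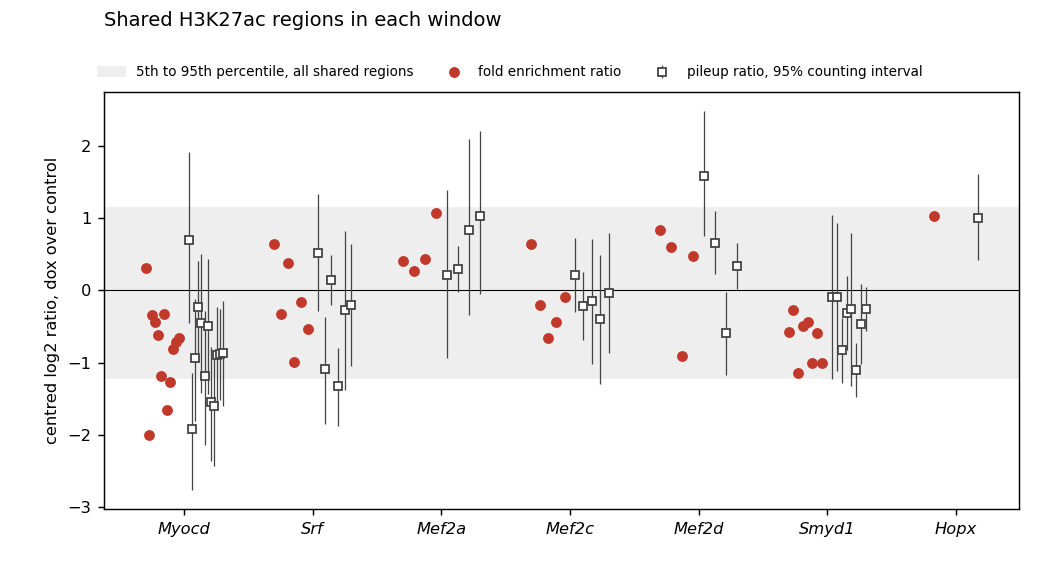
Centred log2 ratio of dox over control for each shared region, by window; filled circles are fold enrichment ratios, open squares pileup ratios with 95% counting intervals, and the grey band holds the 5th to 95th percentile of all shared regions. The *Smyd1* circles and squares are below 0 in 8 of 8 regions, those of *Myocd* in 11 of 12, and the *Mef2a* ones are above 0 in 4 of 4. The counting interval spans 0 in 6 of the 8 *Smyd1*, 4 of the 12 *Myocd* and 4 of the 4 *Mef2a* regions.

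*Smyd1* lies at chr6:71213940-71262281. Its window held 24 regions, 2 dox-only, 8 shared and 14 control-only, and intervals covered 16.7 kb in dox and 26.3 kb in control. All 8 shared regions were below 0, with 3 lower in dox and a median of −0.58. By pileup the median was −0.29, and the counting interval was below 0 for 2 of the 8 and spanned 0 for 6. The strongest region of the gene body, at chr6:71224127-71229764, had 20.0 in dox and 44.0 in control, with 92 reads in dox and 185 in control. The ratio was −1.004 by fold enrichment and −1.10 by pileup, with an interval of −1.48 to −0.73. Near the end of the gene farthest from its start, the region at chr6:71216488-71217810 had 11.2 in dox and 27.2 in control. With 69 reads in dox and 115 in control, its ratio was −1.15 by fold enrichment and −0.83 by pileup. Beside it, chr6:71218289-71221031 had 12.2 in dox and 18.8 in control, a ratio of −0.49 with a pileup interval spanning 0.

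The *Smyd1* start was covered by chr6:71259150-71265056, with 10.2 in dox and 16.9 in control. Its ratio was −0.59 by fold enrichment and −0.47 by pileup, with an interval of −1.02 to 0.08. The highest value in control cells of the 7 windows, 47.5 against 21.5 in dox, was at chr6:71268002-71273107, 5721 bp beyond the start and at an end of the neighbour *Krcc1*. The fold enrichment ratio there was −1.01. The pileups were 171 reads in dox and 191 in control and the local backgrounds 6.997 in dox and 3.05 in control. By pileup the ratio was −0.25, with an interval of −0.56 to 0.05, so the region passed the limit by fold enrichment and not by pileup. The 14 control-only regions had fold enrichments up to 5.21 and the 2 dox-only ones up to 3.24.

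*Hopx* lies on the minus strand at chr5:77086986-77115123, and its window was the reverse of *Myocd* and *Smyd1*, with 7 dox-only, 1 shared and 0 control-only regions. Intervals covered 7.87 kb in dox and 1.58 kb in control. The strongest was dox-only, at chr5:77084853-77087102 across the 3′ end of the gene, with a fold enrichment of 14.2 and 66 reads, with an interval of 51 to 84. It was the 1 dox-only region of the 7 windows to reach 10. The shared region, inside the gene at chr5:77098509-77101377, had 13.8 in dox and 7.36 in control, with 77 reads in dox and 36 in control. Its ratio was 1.04 by fold enrichment and 1.00 by pileup, with an interval of 0.41 to 1.62. The other 6 dox-only regions had values of 2.81 to 4.23. One of them, at chr5:77114724-77114981 with 3.02, lay by the upstream start whose CArG box is printed above, but 0 regions of either list overlapped the printed promoter.

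**Figure D4:**
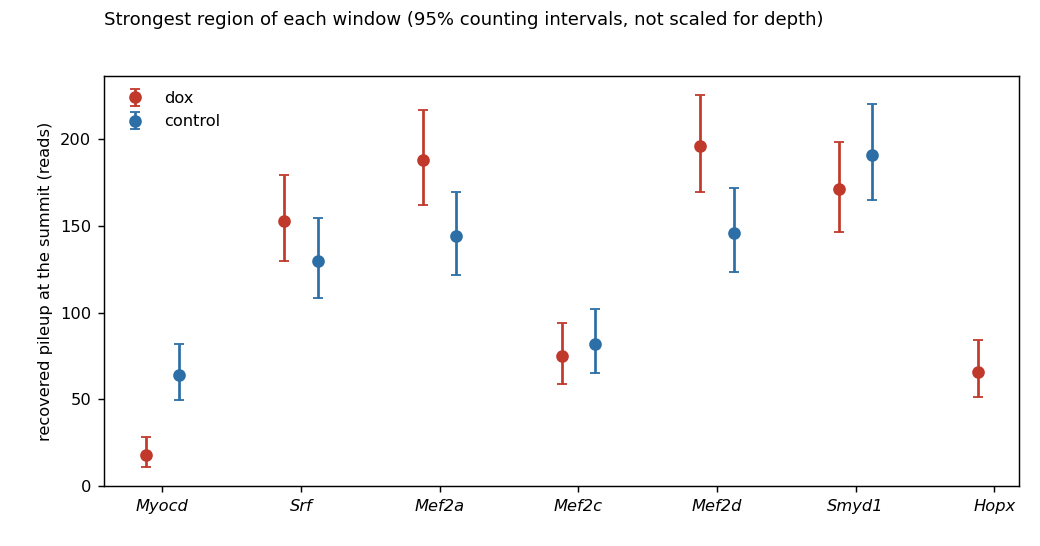
Recovered pileup at the summit (reads) of the strongest region of each window, dox left of control, with 95% counting intervals and no scaling for depth. The *Myocd* intervals do not overlap, with 18 reads in dox and 64 in control, and *Hopx* has a dox point of 66 and no control point because its region was not called in control.

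Counting over all 7 windows by pileup, 3 shared regions were higher and 7 lower in dox, against 6.95% and 8.74% of all shared regions. The 7 lower ones were 4 in *Myocd*, 2 in the *Srf* window and 1 in *Smyd1*, so the measure moved 2 of 3 lower *Smyd1* regions inside the limit and 2 *Srf* ones past it. The counting interval was below 0 for 13 regions, of which 8 lay in the *Myocd* window, and spanned 0 for 23. It was above 0 for 4 regions, of which 3 lay in the *Mef2d* window and 1 in *Hopx*. The matching shares over all shared regions were not computed. Interval counts, here and for single windows, therefore have no baseline in the series. Outside *Myocd* the distance from the gene to the nearest GLI1 site was 131400 bp for *Smyd1*, 254383 bp for *Hopx*, 418847 bp for *Mef2d*, 483124 bp for *Srf*, 534628 bp for *Mef2a* and 3648639 bp for *Mef2c*. The windows of *Hopx*, with 1 higher and 7 dox-only regions, and of *Smyd1*, with 3 lower regions by fold enrichment and 1 by pileup, held no site of the GLI1 list. That list is labelled as holding replicated summits with a GLI motif, so other GLI1 summits are not counted.

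To set the members among all genes, the highest fold enrichment within 1 kb of either gene end was compared. *Myocd* had 4.32 in dox and 14.3 in control, from the neighbouring regions named above, a ratio of −1.60, and 0.318% of the 9747 genes measured in both lists were lower. *Smyd1* had −0.59, *Srf* 0.38 and *Mef2d* 0.60, within the limit. *Hopx* had a region in dox alone. *Mef2a* and *Mef2c* had none, since their acetylated starts lie more than 1 kb inside the outer gene coordinates. Of all genes measured in both lists, 3.78% were higher and 2.05% lower, with a median of 0.14, and of the 20199 genes analysed 2.99% had a region in dox alone and 2.23% in control alone.

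Among 16 partners of SRF and MEF2, 7 had a region in both lists, 1 in control alone and 8 in neither, with 0 past the limit and a median of 0.05. The highest was *Mrtfb*, a myocardin-related coactivator of SRF, at 1.00 just short of the limit, with 26.2 in dox and 14.4 in control, and it had a GLI1 site within 50 kb. The related *Mrtfa* had 8.64 in dox and 9.36 in control, a ratio of 0.02. The lowest was *Naca*, whose muscle isoform is a transcriptional coactivator, at −0.52, with 25.4 in dox and 40.0 in control. *Abra*, an actin-binding activator of SRF signalling, had 6.80 in control alone. *Hdac9*, *Fhl2* and *Nkx2-5* each had 1 GLI1 site within 50 kb and a region in neither list.

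Of the SRF target list, 17 of 20 genes were analysed, of which 14 had a region in both lists, 2 in neither and 1 in control alone. None of the 14 passed the limit, and their median was −0.04. The lowest was *Tagln*, a smooth muscle actin-binding protein, at −0.93 with 13.2 in dox and 27.5 in control, and the highest was the immediate early gene *Egr1*, at 0.71 with 7.12 in dox and 4.78 in control. *Actc1*, cardiac alpha-actin, had 4.11 in control alone. *Zyx* with 1 GLI1 site within 50 kb was at −0.20, and *Filip1l* with 2 sites at 0.52. Of 15 MEF2 targets, 9 had a region in both lists, with 1 higher, 0 lower and a median of −0.10. The higher one was *Casq2*, the calcium-binding protein of the cardiac sarcoplasmic reticulum, at 1.19 with 15.6 in dox and 7.48 in control. It had 2 GLI1 sites within 50 kb. The lowest was *Des*, the muscle intermediate filament desmin, at −0.92 with 6.31 in dox and 13.1 in control. It had 1 GLI1 site within 50 kb. *Nr4a1* with 1 site was at 0.87 and *Xirp1* with 2 sites at −0.10. *Klf2*, an endothelial transcription factor, had 5.19 in dox alone, while *Mb*, myoglobin, had 4.80 and *Ldb3*, a Z-disc protein, 4.18 in control alone.

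**Figure D5:**
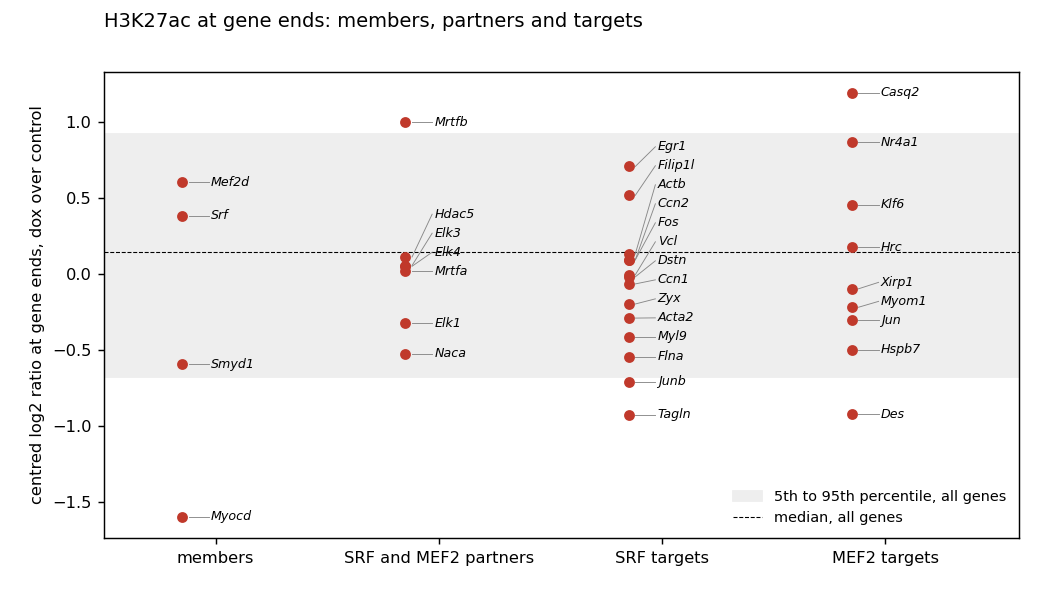
Centred log2 ratio of dox over control at gene ends for members, SRF and MEF2 partners, SRF targets and MEF2 targets with a region in both lists. The dashed line is the median and the grey band the 5th to 95th percentile of all such genes; *Myocd* at −1.60 is the lowest of the points shown and *Casq2* at 1.19 the highest.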

How the data were processed

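H3K27ac and tagged GLI1 were profiled by chromatin immunoprecipitation and sequencing. The tools named in the submitters' processing notes are MACS2 2.1.1, SAMtools 1.5 and Bowtie2 2.3.2, without their roles, and the build is mm10. The deposited H3K27ac lists, each pooling 2 samples, give per summit a fold enrichment (a ratio to local background) and the authors' −log10 p and −log10 q. The deposited score column was not used further. The deposited GLI1 list gives 101 bp windows with a −log10 q and is labelled as replicated summits with a GLI motif.

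Summits were collapsed and lists merged with Python 3.11.15, pandas 2.3.3, numpy 2.4.6 and scipy 1.17.1, and the steps were tested on simulated data. Whole-read pileups returned the deposited values within 0.01 for 99.92% of dox and 99.96% of control summits. Intervals are 95% exact intervals. Genes came from GRCm38.p6, whose table gives outer coordinates without exons, so exon, intron and untranslated parts were not divided. Of its genes, 1684 were not analysed at gene ends, because peak numbers skip there; 0 such stretches lie in the 7 windows. Members, gene lists and alternatives were chosen with earlier results of these data known. Named regions are the strongest, highest, lowest and strongest dox-only and control-only ones of each window; the other *Myocd* regions, the summits around its site and some further regions were named after their values were seen.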

Additional observations from a re-analysis of the deposited data

How the results depend on the processing

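Of 147 values recomputed under alternatives, 135 stayed within 1.5 times of the reported value, or for strongest regions within its counting interval. The other 12 moved by more, and 0 of the values past the limit changed sign. Some of the 135 could hardly move. Leaving out the centring shifts every ratio by the same −0.13. The strongest *Myocd* and *Smyd1* ratios were identical in windows of 10 kb, 50 kb and 100 kb. Keeping summits with a −log10 q of at least 10 left 41 regions, with 5 dox-only, 16 control-only, 0 higher and 4 lower. Shares over all regions of the series are not given at this threshold, so these counts have no baseline. Of the 4 lower regions, 3 lay in the *Smyd1* window, 1 in that of *Srf* and 0 in that of *Myocd*, whose 4 lower regions were control-only there. Windows of 10 kb held 30 control-only regions and 1 higher region, and the *Srf* median changed sign, from −0.24 to 0.02. Windows of 100 kb held 42 dox-only regions and 2 GLI1 sites, and the *Hopx* median was 0.24. By recovered pileups the strongest *Smyd1* region was at −0.25. With the highest fold enrichment anywhere in the gene body in place of the gene ends, *Myocd* was at −0.86, from 8.27 in dox and 16.5 in control, which belong to different regions. Without centring, the median of the partner list was −0.08, and with ends of 5 kb that of the SRF targets was 0.09. Counts of higher and lower regions by pileup and by mean fold enrichment were chosen after seeing the data. No paired analysis was possible because each list pools its 2 samples, and leaving out a replicate could not be run for the same reason. Depth limits the weak regions, whose few reads leave wide intervals.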
